A study of Homo sapiens with 9 samples.

Results

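Adding S-adenosylmethionine (SAM), the methyl donor of the cell, to decitabine, an inhibitor of DNA methyltransferases, was compared with decitabine alone by RNA-seq of PC-3 cells, an established human line of castration-resistant prostate cancer. The comparison covered 6 of the 9 libraries of the series: 3 of the combination group (Dec_Sam 1 to 3) and 3 of the decitabine group (Dec 1 to 3). The other 3 libraries, from control cells (Ctrl 1 to 3), served as the reference for what decitabine had changed. All groups were of the same line and, by the labels, differed in treatment. Decitabine was used at 1 µM and SAM at 200 µM per the study's methods, the labels give 5 days of treatment, and the controls received the vehicle. PC-3 is 1 line, and nothing in the labels says whether the 3 libraries of a group came from separate cultures, so p-values measure only the spread between these libraries, which may be technical. No library of SAM without decitabine was analysed here. Of the 60617 gene identifiers in the files, 18532 had enough counts to be tested between the treatments. Expression is given as CPM, counts scaled to a common library total, after TMM scaling, a correction for the composition of the libraries. CPM is not divided by gene length, so levels were compared between libraries and not between genes. A gene was called at an adjusted p below 0.05 by edgeR's quasi-likelihood test. A log2 fold change is Dec_Sam minus Dec unless another pair is named, and its error is the SE of the fit.

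Decitabine is built into DNA in place of deoxycytidine and traps DNA methyltransferase 1, so that daughter strands lose methylation as cells divide. Among the genes and repeats that can be switched on in this way are germline genes and endogenous retroelements, whose double-stranded RNA can be sensed in the cytosol and start an interferon response. SAM supplies the methyl group for DNA, RNA and protein methylation and the aminopropyl groups for polyamines.

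Total counts lay between 21934307 and 22489684 per library. Markers matched the label of the line in part. The prostate antigen KLK3 had 0 counts in all 9 libraries, and the keratin KRT18 and vimentin (VIM) were abundant. Of 14 leukocyte markers, 4 had no counts in either treated group (CD2, MS4A1, FCGR3A and NKG7), and the 14 together summed to 3.81 to 4.6 CPM in Dec, 3.05 to 3.92 CPM in Dec_Sam and 0.596 to 1 CPM in Ctrl. Of 12 endothelial and stromal markers, none was at 0 in any group, with sums of 64.2 to 83 CPM in Dec, 72.6 to 86.9 CPM in Dec_Sam and 33.4 to 36.6 CPM in Ctrl. Their part in the results was not tested.

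The combination libraries did not lie equally far from decitabine. In the 12278 genes whose mean reached 50 counts in every group, the median SD of log2 CPM was 0.107 in Dec_Sam, 0.101 in Dec and 0.0909 in Ctrl. Dec_Sam 3 was the library farthest from its group. It differed from the mean of the other two by more than 1 on the log2 scale at 66 of these genes, 54 of them higher, against 26 genes for Dec_Sam 1, 9 for Dec_Sam 2 and at most 28 for any library of the other groups. Its root mean square difference in log2 CPM was 0.23 from Dec 3 and 0.229 from Dec_Sam 2, so it was about as near to a library of the other group as to the nearest of its own. Dec_Sam 1 and Dec_Sam 2 differed from each other by 0.177 and from the decitabine libraries by 0.36 to 0.407. On the second principal component, which held 11.7% of the variance, the Dec libraries scored 11.6 to 18.5, Dec_Sam 1 and 2 scored -24 and -21.2, and Dec_Sam 3 scored -6.65. Each library was at a similar depth, and the labels give no reason for the difference. Results are therefore given per library, and the counts of calls without single libraries stand beside them.

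**Figure D1:**
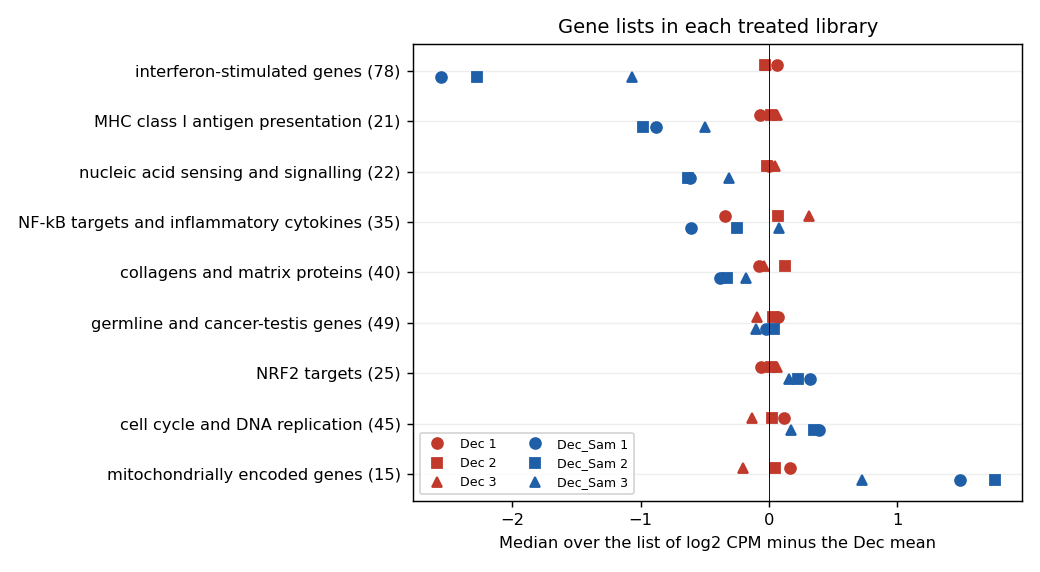
Median difference in log2 CPM from the mean of the 3 Dec libraries (x axis) for 9 gene lists (y axis, number of genes tested in parentheses), with 1 point per Dec library (red) and per Dec_Sam library (blue). For the interferon-stimulated genes the points of Dec_Sam 1, 2 and 3 lie at -2.56, -2.27 and -1.06, and for the mitochondrially encoded genes at 1.49, 1.76 and 0.73, while the germline genes stay near 0.

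SAM changed 2908 genes relative to decitabine alone, 1421 of them higher (7.67% of the genes tested) and 1487 lower (8.02%), and over all genes the log2 fold change had a median of 0.0021. Larger changes were mostly decreases, since 323 of the lower and 74 of the higher genes passed 1 on the log2 scale. Each call was then set beside the decitabine effect, for which 36.3% of the genes tested were called higher and 32.5% lower in Dec than in Ctrl. Both comparisons use the Dec libraries, with opposite sign, so a deviation of these libraries alone favours opposite calls, and the sizes of the classes are descriptions. Decitabine changes were reversed at 1545 genes, strengthened at 599 genes, and 764 genes were called between the treatments without a call for decitabine. Calls that were made again in each of the 9 fits that left out 1 library numbered 757 (4.08% of the genes tested), with 425 reversed, 156 strengthened and 176 called between the treatments only. Without Dec_Sam 3 the calls rose to 2066 higher and 1997 lower, and without Dec_Sam 2 they fell to 381 and 480. Without Dec_Sam 1 they were 591 and 773, without Dec 2 they were 408 and 596, and without Dec 1 they were 846 and 937.

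Reversals of a rise were larger on the log2 scale than reversals of a fall, while the share of the decitabine change taken back was smaller. The 772 genes raised by decitabine and lower with SAM had a median log2 fold change of -0.76, and the median share taken back was 51.1% of the log2 rise. The 773 genes lowered by decitabine and higher with SAM had a median of 0.37 and a median share of 63.6%. Against the controls, for which 35.9% of all genes were called higher and 31.3% lower in Dec_Sam, 464 of the former remained above Ctrl, 285 were not called and 23 were below. Of the latter, 383 remained below Ctrl, 369 were not called and 21 were above. The strengthened genes were 254 raised further (median 0.47) and 345 lowered further (median -0.41). Those called only between the treatments were 394 higher (median 0.39) and 370 lower (median -0.48).

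**Figure D2:**
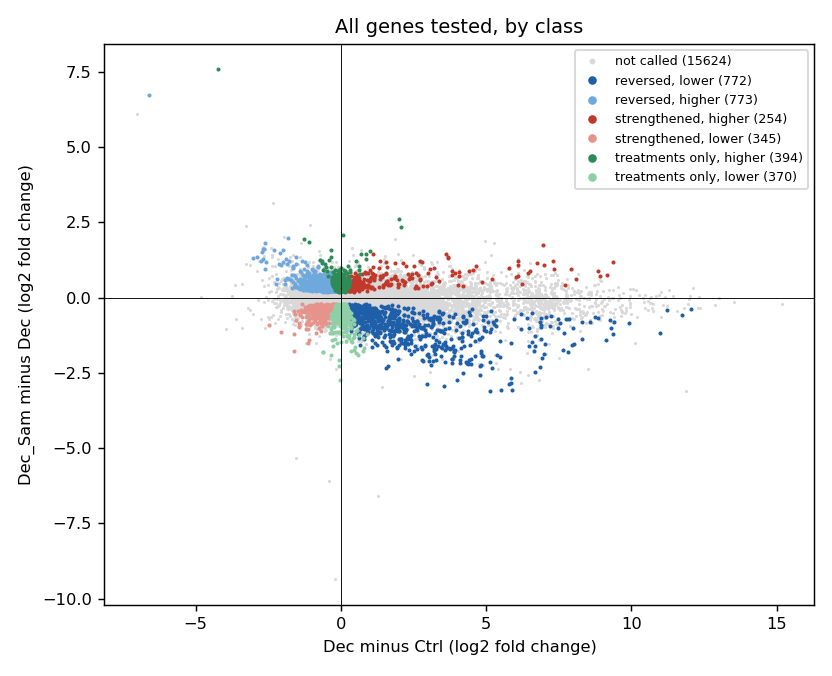
Log2 fold change of Dec minus Ctrl (x axis) and of Dec_Sam minus Dec (y axis) for the 18532 genes tested, 1 point per gene, coloured by class with the number of genes in the key. Among called genes the reversed, lower class (dark blue) reaches farthest below 0, and the 2 called points above 6 are genes with 0 counts in every Dec library, whose fitted values depend on the prior count.

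The interferon-stimulated genes that decitabine raised were lower with SAM added. Interferon-stimulated genes are switched on by a complex that holds STAT2 and IRF9 through a short promoter element, the interferon-stimulated response element (ISRE). To show this element at genes of this group, windows around it are printed from promoters of a chemokine (CXCL10), inhibitors of viral RNA (IFIT1 and IFIT5), an RNA sensor (IFIH1), a peptide transporter (TAP1) and the ligand PD-L1 (CD274). The sequences are RefSeq's for GRCh38.p14, read 5′ to 3′ on the strand of the gene, and capitals mark matches to GAAANNGAAA or, on the other strand, TTTCNNTTTC, overlapping matches included.
CXCL10 (chr4:76023679-76023747, minus strand): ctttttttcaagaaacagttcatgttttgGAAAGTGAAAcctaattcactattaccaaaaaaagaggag
IFIT1 (chr10:89392477-89392546, plus strand): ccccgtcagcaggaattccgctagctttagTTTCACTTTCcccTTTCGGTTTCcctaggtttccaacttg
IFIT5 (chr10:89414493-89414562, plus strand): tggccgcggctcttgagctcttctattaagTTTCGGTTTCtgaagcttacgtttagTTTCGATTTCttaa
IFIH1 (chr2:162318804-162318873, minus strand): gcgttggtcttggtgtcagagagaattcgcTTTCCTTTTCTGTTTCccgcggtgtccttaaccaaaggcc
TAP1 (chr6:32853799-32853868, minus strand): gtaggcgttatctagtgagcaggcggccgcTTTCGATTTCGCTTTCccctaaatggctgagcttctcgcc
CD274 (chr9:5450304-5450373, plus strand): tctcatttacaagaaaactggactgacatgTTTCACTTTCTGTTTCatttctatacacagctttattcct
Such a match stood within 250 bases before to 50 after the gene start in 40 of the 63 interferon-stimulated genes with a promoter in the RefSeq table (63.5%), in 9 of 17 antigen presentation genes (52.9%) and in 996 of all 27305 promoters (3.65%). Among genes raised by decitabine and lower with SAM it stood in 72 of 515 (14%), and in the other classes in 0.974% to 3.83%. A match is a run of letters and does not show that a factor was bound.

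Of 79 interferon-stimulated genes on the list, 78 were tested and 1 (DHX58) had too few counts. Decitabine raised 76 of the 78, beside 36.3% of all genes tested, and the median of the 78 was 3.20 on the log2 scale. With SAM added 67 were lower (85.9%, beside 8.02% of all genes tested) and none higher. Log2 fold changes of the 78 ran from -3.05 to -0.29, with a median of -1.81 beside 0.0021 for all genes. The groups Dec and Dec_Sam did not overlap in any of the 78, where 34% of all genes tested did not overlap. In 77 of the 78, Dec_Sam 3 was the combination library nearest to the decitabine mean, against 49.4% of all genes. The number lower was 26 without Dec_Sam 2, 29 without Dec 2, 33 without Dec 1, 35 with only the 6 libraries fitted and 38 without Dec_Sam 1. Against the controls 54 of the 78 were still called higher in Dec_Sam and 4 lower, with a median of 1.43. Of all genes tested, 35.9% were higher and 31.3% lower in Dec_Sam than in Ctrl. A lower level of such a gene in a bulk library can come from fewer responding cells or from less RNA per cell, which cannot be told apart.

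Effectors of the response were among the genes that fell. CXCL10, a chemokine that draws T cells, stood at 0.972, 1.01 and 1.02 CPM in Dec and 0, 0.132 and 0.213 CPM in Dec_Sam, against 0, 0.05 and 0 CPM in Ctrl (log2 fold change -3.05 ± 0.54, adjusted p = 0.0031). It lies on chromosome 4, 76021118 to 76023497 (GRCh38, GENCODE release 44, as for all positions given here). CXCL10 was low in every combination library and was called in all 9 fits that left out 1 library, although it rests on few counts. MX1, a GTPase that blocks virus replication (chromosome 21, 41420020 to 41470071), read 671, 595 and 483 CPM in Dec and 65.4, 83.3 and 210.4 CPM in Dec_Sam, and 27.1, 25.3 and 11.7 CPM in Ctrl. Its decrease was 4.87-fold (log2 fold change -2.28 ± 0.52, adjusted p = 0.034), and the call was lost without Ctrl 1, Ctrl 2, Dec 1, Dec 2, Dec 3, Dec_Sam 1 or Dec_Sam 2. IFIT1, which binds foreign RNA caps (chromosome 10, 89392546 to 89406487), had 762, 603 and 575 CPM in Dec, 88.6, 96.7 and 255 CPM in Dec_Sam and 35.3, 37.6 and 25.3 CPM in Ctrl (log2 fold change -2.14 ± 0.45, adjusted p = 0.026, lost without Dec 1, Dec 2, Dec_Sam 1 or Dec_Sam 2). For both genes Dec_Sam 3 lay between the other combination libraries and decitabine. IFIT5 (chromosome 10, 89414568 to 89421605) came near its control level in all 3 combination libraries, with 62.8, 53.9 and 46.5 CPM in Dec, 25.1, 25.3 and 31.2 CPM in Dec_Sam and 31, 30.5 and 29.6 CPM in Ctrl (log2 fold change -1.0 ± 0.11, adjusted p = 3.1e-04). RSAD2, the radical SAM enzyme viperin, had 269.9, 245 and 291 CPM in Dec and 10.1, 12.5 and 98.8 CPM in Dec_Sam and was not called, with Dec_Sam 3 far above the other combination libraries (log2 fold change -2.73 ± 0.86, adjusted p = 0.085).

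The 8 largest decreases by the rule for named genes were ZBP1, OR52K3P, TNFSF10, TRIM22, RTP4, APOL1, TRANK1 and AIM2, with log2 fold changes from -3.11 to -2.47. All 8 were also called higher in Dec than in Ctrl, beside 36.3% of all genes tested. The rule takes large falls from Dec, and Dec enters both comparisons, so this follows in part from the choice. None of the 8 was called in all 9 fits that left out 1 library. TNFSF10 encodes TRAIL, a ligand that can start apoptosis, and stood at 15.1, 10.8 and 13 CPM in Dec and 0.61, 0.572 and 4.09 CPM in Dec_Sam (log2 fold change -2.87 ± 0.63, adjusted p = 0.026, lost without Dec 1, Dec 2, Dec 3, Dec_Sam 1 or Dec_Sam 2). TRIM22, an antiviral ubiquitin ligase, read 4.82, 4.43 and 6.27 CPM in Dec and 0.131, 0.308 and 1.66 CPM in Dec_Sam, where Dec_Sam 1 and 2 were below its control level of 0.794, 0.75 and 0.444 CPM (log2 fold change -2.86 ± 0.58, adjusted p = 0.014, lost without Dec_Sam 2). AIM2, a sensor of cytosolic DNA, had 2.62, 3.54 and 5.84 CPM in Dec and 0.131, 0.352 and 1.66 CPM in Dec_Sam, and its call was lost in 8 of the 9 fits, all but that without Dec_Sam 3. Among the reversed genes called in every such fit, the largest decreases were at C4B, BATF2, CLTRN, PLAAT4 (-2.03 ± 0.30, adjusted p = 0.0026), PSMB8-AS1 and PARP9. C4B, a complement component whose reads can be shared with its near-identical neighbour C4A, stood at 4.48, 3.97 and 2.2 CPM in Dec and 0.827, 0.528 and 0.852 CPM in Dec_Sam, near or below its 0.844, 1.05 and 1.53 CPM in Ctrl (log2 fold change -2.26 ± 0.32, adjusted p = 8.8e-04). BATF2, a transcription factor induced by interferon, had 31.2, 26.4 and 30.2 CPM in Dec and 4.4, 3.48 and 11.5 CPM in Dec_Sam (log2 fold change -2.18 ± 0.39, adjusted p = 0.013). CLTRN, collectrin, which helps to bring amino acid transporters to the cell surface, fell from 43.2, 42.9 and 41.1 CPM to 6.27, 7.08 and 16.8 CPM, beside 5.86, 6.75 and 5.92 CPM in Ctrl (log2 fold change -2.07 ± 0.33, adjusted p = 0.0084). The lncRNA PSMB8-AS1 is named as antisense to PSMB8, and since counting by strand is not stated, reads of the pair cannot be told apart (log2 fold change -1.88 ± 0.34, adjusted p = 0.0039). PARP9, an ADP-ribosyltransferase of the interferon response, stood at 353, 305 and 259.6 CPM in Dec and 58.8, 65.2 and 128 CPM in Dec_Sam (log2 fold change -1.86 ± 0.31, adjusted p = 0.011). In CLTRN and PARP9, Dec_Sam 1 and 2 were close to control while Dec_Sam 3 held part of the decitabine level, and in C4B all 3 were low.

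**Figure D3:**
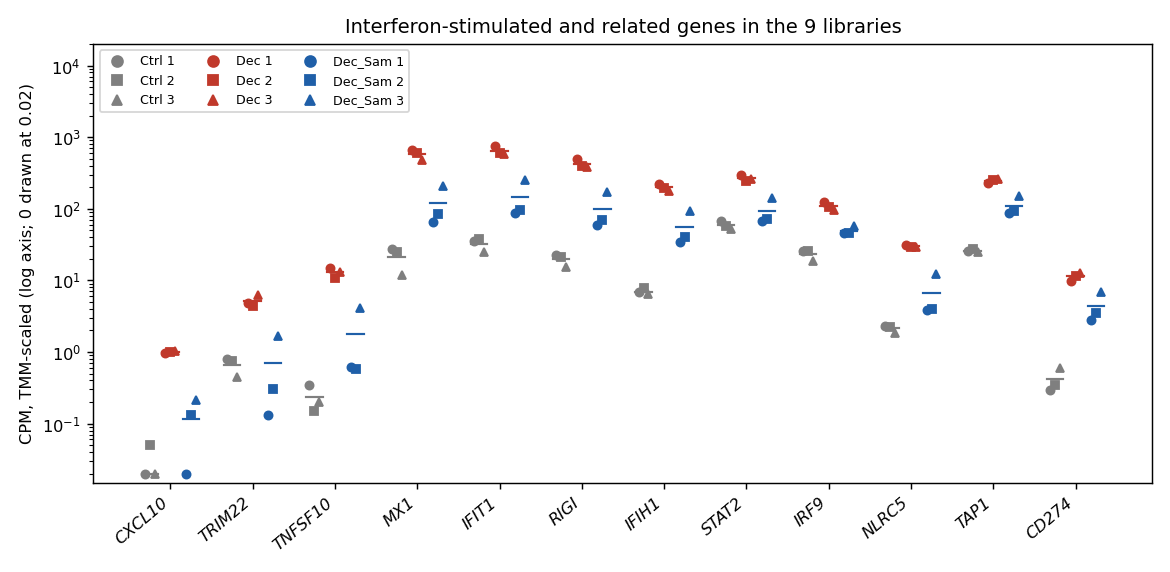
CPM after TMM scaling (y axis, log scale, 0 drawn at 0.02) of 12 genes (x axis) in the 3 Ctrl (grey), 3 Dec (red) and 3 Dec_Sam (blue) libraries, with circles, squares and triangles for libraries 1, 2 and 3 and short lines for group means. All Dec_Sam points lie below all Dec points for each gene, and the triangle of Dec_Sam 3 is the highest of its group in all 12.

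The factors that sense nucleic acids and pass on the interferon signal moved in part. Of 22 tested genes of nucleic acid sensing, 11 were lower (50%) and 2 higher (9.09%) with SAM, with a median of -0.52. Of all genes tested, 8.02% were lower and 7.67% higher. The lower calls were 6 without Dec 2 or Dec_Sam 2 and 7 without Dec_Sam 1 or with only the 6 libraries fitted. The higher calls were 0 without Dec 2 or Dec_Sam 2 and 1 without Dec_Sam 1. RIGI, a helicase that senses double-stranded RNA, stood at 489, 399 and 378 CPM in Dec and 59.1, 70 and 171 CPM in Dec_Sam, against 22.5, 21.2 and 15.4 CPM in Ctrl (log2 fold change -2.08 ± 0.43, adjusted p = 0.024, lost without Dec 1, Dec 2, Dec_Sam 1 or Dec_Sam 2). Its relative IFIH1 (MDA5) had 225, 198 and 178 CPM in Dec and 34.5, 40.3 and 93.4 CPM in Dec_Sam (log2 fold change -1.83 ± 0.38, adjusted p = 0.024, lost without Dec 1, Dec 2, Dec_Sam 1 or Dec_Sam 2). TLR3, the endosomal receptor for such RNA, fell from 3, 3.25 and 3.51 CPM to 0.131, 0.264 and 1.49 CPM (log2 fold change -2.35 ± 0.61, adjusted p = 0.032, lost without Ctrl 2, Dec 1, Dec 2, Dec 3, Dec_Sam 1 or Dec_Sam 2). The 3 RNA sensors, known to be induced by interferon themselves, were lowest in Dec_Sam 1 and highest of the group in Dec_Sam 3. Dec did not overlap with Dec_Sam in them. That held for 34% of all genes tested and for 759 of the 772 genes raised by decitabine and lower with SAM. IFI16, a sensor of DNA, was below control in Dec_Sam 1 and 2, with 265, 223 and 191 CPM in Dec, 56.6, 65.1 and 106 CPM in Dec_Sam and 99.8, 103 and 86.9 CPM in Ctrl (log2 fold change -1.57 ± 0.24, adjusted p = 0.0075). STING1, the adaptor of cytosolic DNA sensing, had no call for Dec minus Ctrl and read 26.3, 29.9 and 29.6 CPM in Dec and 15.6, 15.9 and 21.1 CPM in Dec_Sam (log2 fold change -0.70 ± 0.12, adjusted p = 0.003). TREX1, the nuclease that removes cytosolic DNA, read 18.9, 17.3 and 19.9 and 10.4, 8.1 and 10.5 CPM (log2 fold change -0.95 ± 0.12, adjusted p = 6.0e-04). Other parts of the pathway were not called. The DNA sensor CGAS gave 16.8, 20.5 and 20.6 CPM in Dec and 19.4, 20.4 and 22.1 CPM in Dec_Sam (log2 fold change 0.09 ± 0.10, adjusted p = 0.56), and the factor IRF3 gave 153, 150.5 and 159 and 157, 155 and 151 CPM (log2 fold change 0.00 ± 0.06, adjusted p = 0.99).

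In the list of interferons, receptors and their signalling factors, 6 of 17 tested genes were lower (35.3%) and 1 higher (5.88%). Of all genes tested, 8.02% were lower and 7.67% higher. The median was -0.09, and the lower calls were 3 without Dec 2, Dec_Sam 1 or Dec_Sam 2. The higher call was lost without Dec 1, Dec 2, Dec 3, Dec_Sam 1 or Dec_Sam 2. IRF9, which binds the response element, had 123, 105 and 96.9 CPM in Dec, 46.1, 45.4 and 57.5 CPM in Dec_Sam and 25.8, 25.7 and 18.9 CPM in Ctrl (log2 fold change -1.13 ± 0.13, adjusted p = 6.0e-04), and IRF1 had 40.1, 37.4 and 32.9 and 17.6, 16.5 and 24.7 CPM (log2 fold change -0.91 ± 0.14, adjusted p = 0.0018). IRF9 and IRF1 were called in all 9 fits that left out 1 library. STAT2 gave 294, 240.3 and 260.0 CPM in Dec and 66.9, 71.3 and 140.2 CPM in Dec_Sam (log2 fold change -1.51 ± 0.29, adjusted p = 0.017, lost without Dec 1, Dec 2, Dec_Sam 1 or Dec_Sam 2). IFNE, an interferon of epithelia, went the other way, from 0.507, 0.717 and 0.466 CPM to 1.57, 1.45 and 0.852 CPM, where Ctrl had 0.943, 1.65 and 1.38 CPM (log2 fold change 1.19 ± 0.33, adjusted p = 0.029, lost without Dec 1, Dec 2, Dec 3, Dec_Sam 1 or Dec_Sam 2). IFNB1, the interferon that starts the response in many cells, had few counts, with 0.55, 0.422 and 1.14 CPM in Dec and 0, 0.088 and 0.682 CPM in Dec_Sam, and was not called (log2 fold change -1.42 ± 0.79, adjusted p = 0.25). The receptor subunits IFNAR1 (log2 fold change 0.11 ± 0.08, adjusted p = 0.36) and IFNGR1 (log2 fold change 0.05 ± 0.12, adjusted p = 0.83) were not called either.

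Genes of antigen presentation by MHC class I were lower as well. Of 21 tested members 14 were lower (66.7%, beside 8.02% of all genes tested) and none higher, with a median of -0.77. The lower calls were 8 without Dec 2 and 9 without Dec_Sam 2 or with only the 6 libraries fitted. Decitabine had raised 18 of the 21, beside 36.3% of all genes tested. NLRC5, the transcription factor of this pathway, stood at 31.2, 29.4 and 29.6 CPM in Dec, 3.88, 4 and 12.2 CPM in Dec_Sam and 2.33, 2.25 and 1.83 CPM in Ctrl (log2 fold change -2.16 ± 0.40, adjusted p = 0.015, lost without Dec 2). TAP1, which carries peptides into the endoplasmic reticulum (chromosome 6, 32845209 to 32853816), had 229, 249 and 259.8 CPM in Dec and 86.7, 94.2 and 149 CPM in Dec_Sam, still above its 25.7, 27.5 and 25 CPM in Ctrl (log2 fold change -1.16 ± 0.18, adjusted p = 0.0052). The immunoproteasome subunit PSMB8 read 55.8, 57.1 and 60.5 CPM in Dec and 20.3, 19.4 and 32.8 CPM in Dec_Sam (log2 fold change -1.26 ± 0.17, adjusted p = 0.0017). B2M, the light chain of the presenting molecule, changed by less and went from 931, 872 and 970.5 CPM to 575, 521 and 656 CPM, with 368, 393 and 393 CPM in Ctrl (log2 fold change -0.66 ± 0.09, adjusted p = 5.9e-04). HLA-B, whose reads can be shared with near-identical relatives, was not called, with 46.6, 73.5 and 101 CPM in Dec and 14.2, 16.5 and 42.4 CPM in Dec_Sam (log2 fold change -1.60 ± 0.48, adjusted p = 0.074).

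Some ligands that lymphocytes read on tumour cells fell too. Of 23 tested checkpoint and NKG2D ligands 7 were lower (30.4%) and none higher, beside 8.02% and 7.67% of all genes tested. The median was -0.08, and the lower calls were 3 without Dec_Sam 2 and 4 without Dec 1, Dec 2 or Dec_Sam 1. CD274, which encodes PD-L1 (chromosome 9, 5450503 to 5470566), stood at 9.81, 11.6 and 12.8 CPM in Dec, 2.79, 3.52 and 6.86 CPM in Dec_Sam and 0.298, 0.35 and 0.592 CPM in Ctrl (log2 fold change -1.37 ± 0.27, adjusted p = 0.0081). PDCD1LG2, which encodes PD-L2, had 1.69, 2.66 and 4.02 CPM in Dec and 0.218, 0.484 and 1.15 CPM in Dec_Sam (log2 fold change -2.16 ± 0.47, adjusted p = 0.011, lost without Dec_Sam 2). HLA-E, a ligand of an inhibitory receptor of natural killer cells, read 303, 328 and 339 CPM in Dec and 132, 149 and 216 CPM in Dec_Sam (log2 fold change -0.97 ± 0.15, adjusted p = 0.0039). In each of these 3 ligands Dec_Sam 3 was the highest combination library and still below all of Dec, where 34% of all genes tested had no overlap.

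Genes of the uptake, activation and breakdown of decitabine were tested as 1 list of 12 (median 0.14). Of these, 2 were lower and 2 higher (16.7% each), beside 8.02% and 7.67% of all genes tested. The higher calls were 1 without Ctrl 2, Dec 1, Dec 2, Dec_Sam 1, Dec_Sam 2 or with only the 6 libraries fitted. Both lower genes break down nucleotides and had been raised by decitabine. SAMHD1, which hydrolyses deoxynucleotide triphosphates, had 277, 242 and 256 CPM in Dec, 115, 110.5 and 172 CPM in Dec_Sam and 102, 95.1 and 97.1 CPM in Ctrl (log2 fold change -0.96 ± 0.15, adjusted p = 0.0029), and the nucleotidase NT5C3A had 102, 91.3 and 104 and 44.3, 38.8 and 63.6 CPM (log2 fold change -1.02 ± 0.15, adjusted p = 0.0025). The exporter ABCC4 and the kinase CMPK1 were higher, at 0.38 ± 0.08 and 0.23 ± 0.07 (CMPK1 lost without Ctrl 2, Dec 1, Dec 2, Dec 3, Dec_Sam 1 or Dec_Sam 2). The activating kinase DCK gave 21.9, 23.4 and 23.2 CPM in Dec and 26, 27 and 23.9 CPM in Dec_Sam and was not called (log2 fold change 0.17 ± 0.09, adjusted p = 0.2).

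Germline genes kept most of the level that decitabine gave them. Decitabine raised 45 of 49 tested germline and cancer-testis genes, beside 36.3% of all genes tested. Of the 49, 16 had no counts in Ctrl. With SAM added 2 were higher (4.08%, below the 7.67% of all genes tested) and 4 lower (8.16%, near the 8.02% of all genes tested). The median was -0.05. Against Ctrl 45 of the 45 remained called higher, while 1 of the 49 was called lower. The 49 log2 fold changes between the treatments ran from -0.66 to 0.78. MAGEC2, a cancer-testis antigen, stood at 28, 28 and 24.8 CPM in Dec and 26.5, 26.6 and 24.9 CPM in Dec_Sam, against 0.199, 0.25 and 0.0494 CPM in Ctrl (log2 fold change -0.05 ± 0.10, adjusted p = 0.77). DAZL, an RNA-binding protein of germ cells, had 249, 226 and 153 CPM in Dec and 206, 182 and 155 CPM in Dec_Sam and no counts in Ctrl (log2 fold change -0.21 ± 0.20, adjusted p = 0.55). The groups overlapped in DAZL and in MAGEC2. Called members moved by less than 1 on the log2 scale. SYCP2, of the meiotic chromosome axis, went from 16.7, 15.9 and 14.3 CPM to 9.97, 11.2 and 12.1 CPM (log2 fold change -0.50 ± 0.11, adjusted p = 0.011, lost without Dec 2, Dec_Sam 1 or Dec_Sam 2), and TEX15 rose from 11.9, 9.58 and 11 CPM to 14.3, 18.5 and 16.4 CPM (log2 fold change 0.60 ± 0.17, adjusted p = 0.029, lost without Dec 2, Dec 3 or Dec_Sam 2). None of the 6 calls was made in all 9 fits that left out 1 library, and the lower calls were 0 without Dec 2 or Dec_Sam 2, 1 without Dec_Sam 1, 2 without Dec 1 and 9 without Dec 3. The higher calls were 0 without Dec 2 or Dec_Sam 2 and 1 without Dec 3 or Dec_Sam 1.

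Some adhesion and matrix genes were lower. Of 29 integrins and laminins, which anchor cells to the matrix, 9 were lower (31%) and 2 higher (6.9%), with a median of -0.19. Of all genes tested, 8.02% were lower and 7.67% higher. In all 9 fits that left out 1 library 7 calls were made. The higher calls were 1 without Dec 1, Dec 2, Dec_Sam 2 or with only the 6 libraries fitted. ITGA3, an integrin chain that binds laminin (chromosome 17, 50055968 to 50090481), had no call for Dec minus Ctrl. It read 488, 531 and 494 CPM in Dec, 229, 247 and 326 CPM in Dec_Sam and 423, 474 and 448 CPM in Ctrl (log2 fold change -0.92 ± 0.11, adjusted p = 4.3e-04). ITGB3, of the vitronectin receptor, fell from 14.5, 14.6 and 13.5 CPM to 5.49, 6.69 and 9.71 CPM (log2 fold change -0.96 ± 0.17, adjusted p = 0.0029), and its ligand VTN from 14.3, 17.7 and 17.2 CPM to 7.75, 9.77 and 10.2 CPM (log2 fold change -0.83 ± 0.16, adjusted p = 0.0044). Both had been raised by decitabine and stayed above Ctrl, at 2.38, 2.65 and 2.67 and 0, 0.15 and 0.0987 CPM. ITGB2, the shared chain of leukocyte integrins, had 11.8, 13.1 and 10.7 CPM in Dec and 5.4, 5.15 and 6.18 CPM in Dec_Sam (log2 fold change -1.09 ± 0.13, adjusted p = 4.1e-04). The laminin chain LAMA3 had 164, 166 and 144 and 83.3, 88.1 and 109 CPM (log2 fold change -0.76 ± 0.14, adjusted p = 0.0074). Among 35 tested targets of NF-kB, the transcription factor of inflammation, 27 were raised by decitabine, beside 36.3% of all genes tested. With SAM, CXCL2, IL6, LCN2 and ICAM1 were lower and none higher, a share of 11.4% near the 8.02% of all genes (median -0.30). The lower calls were 0 without Dec 2, Dec 3 or Dec_Sam 2, 1 without Dec_Sam 1, 2 without Ctrl 2 or with only the 6 libraries fitted and 9 without Dec_Sam 3, and the higher ones 1 without Dec 3. IL6, a cytokine, stood at 4.06, 8.65 and 8.05 CPM in Dec and 3.05, 3.65 and 4.73 CPM in Dec_Sam (log2 fold change -0.86 ± 0.25, adjusted p = 0.036, lost without Ctrl 1, Ctrl 2, Dec 2, Dec 3, Dec_Sam 1 or Dec_Sam 2), where Dec_Sam 3 overlapped with Dec 1.

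Collagens and matrix proteins gave 7 lower (17.5%) and 1 higher (2.5%) of 40 tested, beside 8.02% and 7.67% of all genes tested. The median was -0.34. The lower calls were 3 without Dec_Sam 2, 4 without Dec 2 and 12 without Dec_Sam 3. The higher calls were 0 without Ctrl 2, Dec 1, Dec 2, Dec 3, Dec_Sam 1 or Dec_Sam 2 and 2 without Ctrl 1. COL6A1, a chain of collagen VI, stood below control in all 3 combination libraries, with 581, 619 and 486 CPM in Dec, 313, 335 and 354 CPM in Dec_Sam and 494, 534 and 568 CPM in Ctrl (log2 fold change -0.75 ± 0.09, adjusted p = 4.3e-04). Of 31 matrix proteases and genes of plasminogen activation 5 were lower (16.1%) and 2 higher (6.45%), with a median of -0.13. The lower calls were 2 without Dec 2 or Dec_Sam 2 and 3 without Ctrl 2 or with only the 6 libraries fitted. The higher calls were 0 without Dec_Sam 2 and 1 without Dec 1, Dec 2, Dec_Sam 1 or with only the 6 libraries fitted. PLAU, the urokinase that activates plasminogen (chromosome 10, 73909177 to 73917496), had 567, 687 and 639 CPM in Dec, 384, 374 and 485 CPM in Dec_Sam and 276, 308 and 339 CPM in Ctrl (log2 fold change -0.61 ± 0.11, adjusted p = 0.004). The collagenase MMP13 had 68.4, 78.1 and 92.9 CPM in Dec and 36.3, 37.7 and 61.3 CPM in Dec_Sam (log2 fold change -0.82 ± 0.20, adjusted p = 0.03, lost without Ctrl 2, Dec 2, Dec 3, Dec_Sam 1 or Dec_Sam 2). Both proteases were lower in every combination library than in any Dec library, where 34% of all genes tested had no overlap. MMP15, a membrane-bound protease, was raised further, from 15.8, 16.6 and 22.2 CPM to 26.8, 28.8 and 28 CPM (log2 fold change 0.61 ± 0.14, adjusted p = 0.013, lost without Dec 2 or Dec_Sam 2).

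Mitochondrially encoded RNAs rose with SAM, and MT-ND6, MT-ND4, MT-ND4L, MT-ND3, MT-CYB and MT-ND5 were 6 of the 8 largest increases by the rule for named genes, beside CLDN5 and CAMKV. These genes code for 13 subunits of the respiratory chain and the 2 ribosomal RNAs of the organelle. Decitabine lowered the 13 coding genes, beside 32.5% of all genes tested. SAM raised 12 of the 15 (80%, beside 7.67% of all genes tested), while MT-RNR1 was lower. The median was 1.33 beside -2.57 for Dec minus Ctrl. The number raised was 3 without Dec 2, 4 without Dec_Sam 1 and 6 without Dec 3. All mitochondrial genes together took 1.55% to 2.2% of the counts in Dec, 3.43%, 3.79% and 2.43% in Dec_Sam 1, 2 and 3, and 3.78% to 4.73% in Ctrl. MT-CYB, a subunit of complex III, stood at 265, 246 and 244 CPM in Dec, 855, 862 and 459 CPM in Dec_Sam and 1537, 1655 and 1796 CPM in Ctrl, a 2.88-fold increase (log2 fold change 1.53 ± 0.22, adjusted p = 0.0048). MT-ND3 of complex I had 82.4, 67.6 and 67.9 CPM in Dec and 251, 273 and 133 CPM in Dec_Sam (log2 fold change 1.59 ± 0.25, adjusted p = 0.0085), and MT-ND5 had 424, 376 and 344 and 1065, 1394 and 740.4 CPM (log2 fold change 1.48 ± 0.22, adjusted p = 0.0056). These 3 were called in all 9 fits that left out 1 library, and in each Dec_Sam 3 was the lowest of the combination libraries. MT-ND6, the coding gene on the other strand, gave the largest fold change, from 2.24, 2.4 and 4.36 CPM to 8.45, 15.6 and 7.62 CPM (log2 fold change 1.81 ± 0.34, adjusted p = 0.011, lost without Dec 2). MT-CO1 was not called, with 6105, 5059 and 3461 CPM in Dec and 10182, 10567 and 6130.5 CPM in Dec_Sam (log2 fold change 0.88 ± 0.26, adjusted p = 0.056). The small ribosomal RNA MT-RNR1 went against the rest, with 1529, 1532 and 1348 CPM in Dec, 902, 1103 and 1229 CPM in Dec_Sam and 514, 557 and 578 CPM in Ctrl (log2 fold change -0.45 ± 0.10, adjusted p = 0.011, lost without Dec 2 or Dec_Sam 2), and the large one, MT-RNR2, was not called (log2 fold change 0.36 ± 0.14, adjusted p = 0.088). Of the nuclear factors that transcribe this genome, TFAM (log2 fold change 0.17 ± 0.07, adjusted p = 0.14) and POLRMT (log2 fold change 0.19 ± 0.07, adjusted p = 0.085) were not called.

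Cell cycle genes were higher with SAM by smaller amounts. Decitabine lowered 40 of 45 genes of the cell cycle and DNA replication (median -0.80), beside 32.5% of all genes tested. With SAM 19 were higher (42.2%, beside 7.67% of all genes tested) and none lower (median 0.28). Of the 19, 12 were called in all 9 fits that left out 1 library. The higher calls were 12 without Dec_Sam 2 and 29 without Dec_Sam 3, and 29 of the 40 remained called below Ctrl. PLK1, a kinase of mitosis (chromosome 16, 23677656 to 23690367), stood at 34, 29.7 and 30.9 CPM in Dec, 56.9, 58.9 and 42.6 CPM in Dec_Sam and 97, 104 and 105 CPM in Ctrl (log2 fold change 0.74 ± 0.11, adjusted p = 0.0012). BIRC5, survivin, had 208, 183 and 202 CPM in Dec and 350.4, 343 and 267 CPM in Dec_Sam, with 361, 318 and 330.2 CPM in Ctrl, so that Dec_Sam 1 and 2 lay in the control range (log2 fold change 0.69 ± 0.10, adjusted p = 1.0e-03). CDK1, the kinase that drives entry into mitosis, had 105, 95 and 97.3 and 146, 150.4 and 127 CPM (log2 fold change 0.51 ± 0.08, adjusted p = 0.0021). The mitotic genes PLK1 and BIRC5 had the largest values of this list, and the replication helicase subunits MCM2 (log2 fold change 0.11 ± 0.09, adjusted p = 0.44) and MCM5 (log2 fold change 0.09 ± 0.09, adjusted p = 0.54) were not called. The letters TTTNNCGC, which include sites of the E2F factors of cell division (either strand, GCGNNAAA), stood in 15 of 35 promoters of this list (42.9%), in 6.9% of all promoters and in 9.81% of those of the genes tested. It stood in 76 of 607 promoters of the genes that decitabine lowered and SAM raised (12.5%), a share near that of the genes tested, and in 10.5% and 10.4% for the genes raised further and those higher between the treatments only. The inhibitor CDKN1A was not called, with 43.5, 57.9 and 80.9 CPM in Dec and 41.1, 48.6 and 66.2 CPM in Dec_Sam (log2 fold change -0.22 ± 0.24, adjusted p = 0.58).

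Among genes of DNA methylation the UHRF pair and HELLS were higher. UHRF1, which brings DNMT1 to newly copied DNA (chromosome 19, 4903080 to 4962154), stood at 88.4, 88.4 and 83.6 CPM in Dec, 133, 138 and 112 CPM in Dec_Sam and 129, 156 and 170.5 CPM in Ctrl (log2 fold change 0.55 ± 0.10, adjusted p = 0.0039). Its relative UHRF2 had 44.2, 37.1 and 45.1 CPM in Dec and 56.8, 59.8 and 58.1 CPM in Dec_Sam (log2 fold change 0.47 ± 0.08, adjusted p = 0.0026), and the remodeller HELLS had 16.2, 15.2 and 15 and 22.4, 19.1 and 17.4 CPM (log2 fold change 0.34 ± 0.11, adjusted p = 0.042, lost without Ctrl 2, Ctrl 3, Dec 1, Dec 2, Dec 3, Dec_Sam 1 or Dec_Sam 2). These were the 3 of 18 tested genes that were higher (16.7%), and none was lower (median 0.09). Of all genes tested, 7.67% were higher and 8.02% lower. There was 1 lower call without Dec 3 or Dec_Sam 3. The enzymes were not called, with log2 fold change 0.05 ± 0.10, adjusted p = 0.78 for DNMT1, 0.01 ± 0.11, adjusted p = 0.97 for DNMT3A and 0.05 ± 0.14, adjusted p = 0.85 for DNMT3B. DNMT1 had 259, 233 and 198 CPM in Dec and 242, 250.2 and 220.3 CPM in Dec_Sam, below its 371, 405 and 437 CPM in Ctrl.

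SAM itself is made from methionine and is used up by methyltransferases and polyamine synthesis. Of 32 tested genes of SAM metabolism and polyamines 8 were higher (25%) and 2 lower (6.25%), beside 7.67% and 8.02% of all genes tested. The median was 0.17, and SMOX, ODC1, AMD1 and MTAP of the polyamine branch had the largest values. The higher calls were 4 without Dec 2 or Dec_Sam 2, 5 without Dec_Sam 1 and 13 without Dec_Sam 3. The lower calls were 0 without Dec 1, Dec 2 or Dec_Sam 1. They were 1 without Ctrl 2, Ctrl 3, Dec_Sam 2 or with only the 6 libraries fitted. ODC1, which makes putrescine (chromosome 2, 10439968 to 10448327), had 561, 543 and 614 CPM in Dec, 893, 792 and 715 CPM in Dec_Sam and 951, 947 and 935 CPM in Ctrl (log2 fold change 0.48 ± 0.09, adjusted p = 0.003). AMD1, which decarboxylates SAM for polyamine synthesis (chromosome 6, 110874770 to 110898879), had 70.4, 75.4 and 88.4 CPM in Dec and 107, 109.8 and 110.5 CPM in Dec_Sam, above its 88.2, 86.1 and 86.8 CPM in Ctrl (log2 fold change 0.48 ± 0.08, adjusted p = 0.0022). MTAP, which salvages the by-product of that branch, had 84.1, 69.9 and 76.6 and 116, 106 and 98.3 CPM (log2 fold change 0.48 ± 0.08, adjusted p = 0.003). SMOX, which oxidises spermine, was raised further than by decitabine alone, from 58.7, 64.2 and 81.8 CPM to 131, 122 and 98.6 CPM with 46.8, 40.3 and 35.8 CPM in Ctrl (log2 fold change 0.78 ± 0.14, adjusted p = 0.0071). These 4 were called in all 9 fits that left out 1 library. In the methionine cycle, MTR, which remakes methionine from homocysteine, was lower, with 31.6, 32.1 and 26.5 CPM in Dec and 20.2, 24.2 and 24.1 CPM in Dec_Sam (log2 fold change -0.40 ± 0.10, adjusted p = 0.015, lost without Dec 1, Dec 2 or Dec_Sam 1). The SAM synthetase MAT2A (log2 fold change -0.16 ± 0.10, adjusted p = 0.29) and AHCY, which removes the product of methyl transfer (log2 fold change -0.01 ± 0.08, adjusted p = 0.96), were not called. Among 23 serine and folate enzymes 4 were higher (17.4%) and 2 lower (8.7%, median 0.01), with 2 without Dec 2 for the higher ones.

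Targets of the antioxidant factor NRF2 gave 8 higher (32%) and no lower calls among 25, beside 7.67% and 8.02% of all genes tested. The median was 0.20. The higher calls were 2 without Dec 2 or Dec_Sam 2, 3 without Dec 1 or Dec_Sam 1 and 5 with the 6 libraries alone. The reductases AKR1C1 and AKR1C2, close relatives that can share reads, led them. AKR1C2 had 0.846, 1.14 and 0.974 CPM in Dec, 2.66, 2.51 and 1.53 CPM in Dec_Sam and 3.92, 4 and 4 CPM in Ctrl (log2 fold change 1.17 ± 0.25, adjusted p = 0.0073), and AKR1C1 had 1.52, 1.9 and 2.03 and 3.66, 3.39 and 3.62 CPM (log2 fold change 0.97 ± 0.19, adjusted p = 0.006). The iron-storage chains FTH1 and FTL were higher at 0.43 ± 0.10 and 0.39 ± 0.10, and FTH1 stood at 6750.4, 7221 and 9348 CPM in Dec and 10692, 10328 and 10449 CPM in Dec_Sam (FTH1 lost without Dec 1, Dec 2 or Dec_Sam 2, FTL without Dec 1, Dec 2, Dec_Sam 1 or Dec_Sam 2). ACO1, the cytosolic aconitase that also regulates iron, rose in all combination libraries, from 57.4, 61.6 and 61.3 CPM in Dec to 119, 122 and 95 CPM in Dec_Sam, with 106, 111 and 116 CPM in Ctrl (log2 fold change 0.90 ± 0.09, adjusted p = 2.9e-04). Of 8 tested genes on the metallothionein list, MT1M, MT1E and MT2A were lower (37.5%) and the zinc transporter SLC30A1 was higher (12.5%). The lower calls were 1 without Dec_Sam 1 or Dec_Sam 2, and the higher call was lost without Dec 1, Dec 2 or Dec_Sam 2. MT1E, a metal-binding protein, had 19.2, 19.3 and 14.4 CPM in Dec and 11.5, 10.8 and 10.7 CPM in Dec_Sam (log2 fold change -0.68 ± 0.13, adjusted p = 0.0056).

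**Figure D4:**
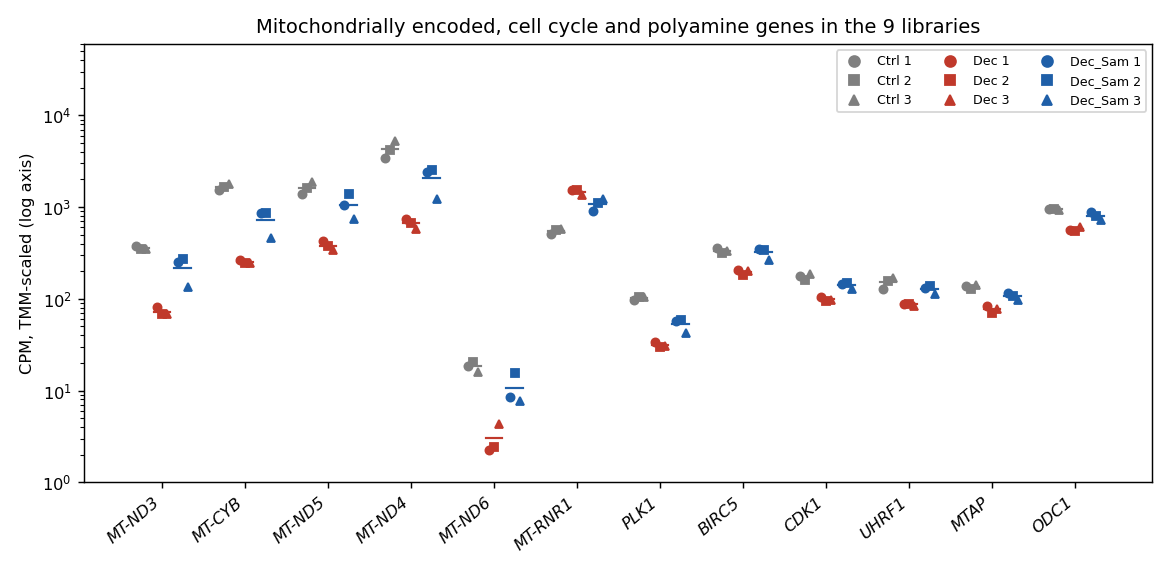
CPM after TMM scaling (y axis, log scale) of 12 genes (x axis) in the 3 Ctrl (grey), 3 Dec (red) and 3 Dec_Sam (blue) libraries, with circles, squares and triangles for libraries 1, 2 and 3 and short lines for group means. All Dec_Sam points lie on the Ctrl side of Dec, which is above Dec for 11 genes and below it for MT-RNR1, where decitabine raised the level.

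A second set of genes was moved further in the direction of decitabine. Among those raised further and called in all 9 fits that left out 1 library, the largest changes were at CLDN5, CAMKV, CD36, LKAAEAR1, NMB and TNFRSF10D. CLDN5, a claudin of tight junctions (chromosome 22, 19523024 to 19527545), had no counts in Ctrl, 0.381, 0.717 and 0.974 CPM in Dec and 2.31, 2.2 and 2.47 CPM in Dec_Sam, a 3.35-fold increase with SAM (log2 fold change 1.74 ± 0.31, adjusted p = 0.0044). CD36, a fatty acid and lipoprotein receptor, had 0.677, 0.928 and 1.14 CPM in Dec and 2.83, 2.16 and 2.09 CPM in Dec_Sam (log2 fold change 1.36 ± 0.29, adjusted p = 0.0083). NMB, neuromedin B, stood at 2.23, 2.4 and 1.38 CPM in Ctrl, 5.24, 5.23 and 7.33 CPM in Dec and 15.1, 14.9 and 10.6 CPM in Dec_Sam (log2 fold change 1.19 ± 0.19, adjusted p = 0.0019). In contrast to the interferon genes, all 3 combination libraries of CLDN5 and CD36 lay close together. TNFRSF10D, a decoy receptor for TRAIL, had no counts in Ctrl and rose from 3.85, 2.78 and 4.4 CPM to 9.19, 8.8 and 7.11 CPM (log2 fold change 1.18 ± 0.19, adjusted p = 0.0029), while TNFSF10, which encodes TRAIL, fell as given above. CAMKV, a kinase-like protein of neurons, gave 1.45 ± 0.27, adjusted p = 0.0044, and LKAAEAR1 gave 1.2 ± 0.23, adjusted p = 0.0044. The most strongly lowered further were SH3TC2-DT, FCGR2A, CCDC9B, IL31RA, NREP and EPHX2. FCGR2A, a receptor for the constant part of IgG, fell from 14.8, 11 and 10.6 CPM in Ctrl to 3, 2.95 and 2.84 CPM in Dec and 1.35, 0.924 and 1.7 CPM in Dec_Sam (log2 fold change -1.14 ± 0.23, adjusted p = 0.0057). IL31RA, a cytokine receptor subunit, had 7.23, 5.74 and 4.45 CPM in Dec and 2.22, 3.21 and 3.15 CPM in Dec_Sam (log2 fold change -1.02 ± 0.19, adjusted p = 0.0044). EPHX2, the soluble epoxide hydrolase, stood at 31.9, 27.8 and 28 CPM in Ctrl, 20.8, 19.4 and 15.6 CPM in Dec and 9.58, 9.06 and 10.9 CPM in Dec_Sam (log2 fold change -0.92 ± 0.12, adjusted p = 6.0e-04). NREP gave -0.93 ± 0.11, adjusted p = 4.3e-04, CCDC9B -1.10 ± 0.15, adjusted p = 0.0018 and the lncRNA SH3TC2-DT -1.17 ± 0.22, adjusted p = 0.0044. H6PD, which feeds the pentose phosphate pathway of the endoplasmic reticulum, went from 30.3, 35.1 and 35.1 CPM to 15.2, 17.7 and 23.3 CPM (log2 fold change -0.84 ± 0.13, adjusted p = 0.0015), and PFKL, the liver form of phosphofructokinase, also fell further, from 79.2, 76.7 and 68.5 CPM to 55.1, 54.8 and 57 CPM (log2 fold change -0.43 ± 0.07, adjusted p = 0.0024).

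Genes called between the treatments without a call for decitabine moved in both directions. Among those higher and called in all 9 fits that left out 1 library were GAL, ZDHHC6, NRGN, CASTOR2, CREBZF and GPAM. ZDHHC6, a palmitoyltransferase (chromosome 10, 112424428 to 112447572), stood at 25.2, 26.1 and 27.2 CPM in Ctrl, 22.8, 20.2 and 24.9 CPM in Dec and 45.7, 43.4 and 38.5 CPM in Dec_Sam (log2 fold change 0.91 ± 0.09, adjusted p = 3.1e-04). CASTOR2, of the family that senses arginine upstream of mTORC1, had 12.2, 13.1 and 14.1 CPM in Dec and 21.8, 25.6 and 22.7 CPM in Dec_Sam (log2 fold change 0.83 ± 0.10, adjusted p = 4.1e-04). CREBZF, a leucine zipper protein, had 53.3, 47.6 and 60.3 and 92.7, 96.7 and 90.2 CPM (log2 fold change 0.79 ± 0.09, adjusted p = 3.1e-04). In these genes all combination libraries lay above both other groups. GPAM, which starts glycerolipid synthesis in mitochondria, rose from 28.5, 25.1 and 26.7 CPM to 47, 47.3 and 44.3 CPM (log2 fold change 0.79 ± 0.10, adjusted p = 6.0e-04), while ACSS2, which makes acetyl-CoA from acetate, fell from 104, 93.5 and 78.9 CPM to 66.9, 64.2 and 64.1 CPM (log2 fold change -0.50 ± 0.09, adjusted p = 0.0029). The neuropeptide GAL rose from 2.49, 1.98 and 3.05 CPM to 4.96, 5.41 and 5.15 CPM (log2 fold change 1.04 ± 0.19, adjusted p = 0.0039), and NRGN gave 0.88 ± 0.12, adjusted p = 7.6e-04. ZMAT3, known as a p53 target in cells with p53, rose from 18.2, 18.9 and 19.6 CPM to 29.7, 32.5 and 26.9 CPM (log2 fold change 0.65 ± 0.09, adjusted p = 7.5e-04). The lower genes of this class were led by LURAP1L-AS1, AJUBA-DT, BTN3A2, VWDE, TRIM5 and RAB26. BTN3A2, a butyrophilin, had 8.69, 10.6 and 8.89 CPM in Ctrl, 12.9, 9.58 and 9.27 CPM in Dec and 3.09, 3.04 and 5.49 CPM in Dec_Sam (log2 fold change -1.45 ± 0.21, adjusted p = 0.0016). TRIM5, which restricts retroviral capsids, had 41, 34.6 and 26.2 CPM in Ctrl, 50.9, 44.5 and 43.8 CPM in Dec and 13.8, 17 and 24.8 CPM in Dec_Sam (log2 fold change -1.32 ± 0.22, adjusted p = 0.0073). Both ended below the controls in every combination library. VWDE gave -1.33 ± 0.19, adjusted p = 8.8e-04, RAB26 -1.19 ± 0.23, adjusted p = 0.0055, and the lncRNAs LURAP1L-AS1 and AJUBA-DT -1.90 ± 0.40, adjusted p = 0.0083 and -1.49 ± 0.29, adjusted p = 0.005. ULK1, the kinase that starts autophagy, went from 89.1, 103 and 106 CPM to 67.2, 74.7 and 83.2 CPM (log2 fold change -0.40 ± 0.09, adjusted p = 0.0083).

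**Figure D5:**
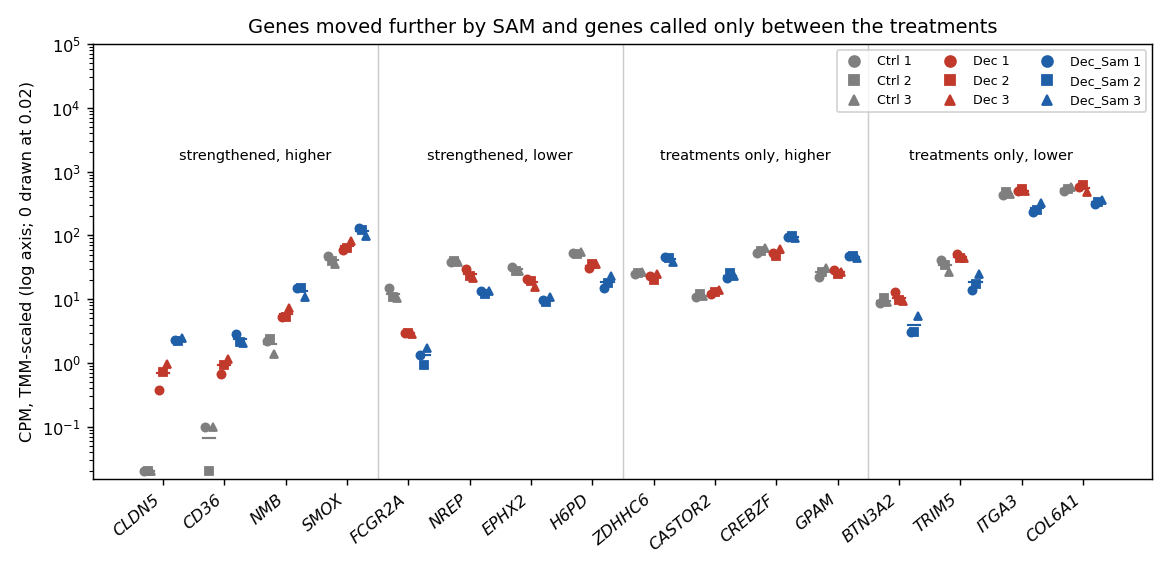
CPM after TMM scaling (y axis, log scale, 0 drawn at 0.02) of 16 genes (x axis) in 4 classes, in the 3 Ctrl (grey), 3 Dec (red) and 3 Dec_Sam (blue) libraries, with circles, squares and triangles for libraries 1, 2 and 3 and short lines for group means. In the first 8 genes the steps from Ctrl to Dec and from Dec to Dec_Sam go the same way, and in the other 8, with no call for Dec minus Ctrl, the Dec_Sam points lie outside both other groups.

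The other lists are given beside the 7.67% higher and 8.02% lower of all genes. The amino acid response of ATF4 gave 4 lower and no higher calls among 47 genes (median -0.13), with STC2 at -0.67 ± 0.14, SLC6A9 at -0.64 ± 0.16, CHAC1 at -0.43 ± 0.11 and ATF4 itself at -0.33 ± 0.09. The lower calls were 0 without Dec_Sam 2, 1 without Dec 2 or Dec_Sam 1, 7 without Ctrl 1 or with only the 6 libraries fitted and 9 without Dec_Sam 3, and the higher ones 1 without Dec_Sam 3. Calls were lost without Dec_Sam 2 for STC2, Dec 1, Dec 2, Dec_Sam 1 or Dec_Sam 2 for SLC6A9, Dec 2, Dec_Sam 1 or Dec_Sam 2 for CHAC1 and Dec 1, Dec 2, Dec 3, Dec_Sam 1 or Dec_Sam 2 for ATF4. The hypoxia response gave no call by edgeR among 23 genes (median -0.01), with 3 higher and 1 lower at an unadjusted p below 0.05, 0 calls by DESeq2, 1 higher by limma on voom weights, 1 higher without Dec 3 and 2 lower without Dec_Sam 3. Targets of TGF-beta gave 4 higher and 4 lower of 23. The higher ones were 1 without Dec 2 or Dec_Sam 2, 2 without Ctrl 2, Ctrl 3, Dec 1, Dec_Sam 1 or with only the 6 libraries fitted and 10 without Dec 3, and the lower ones 0 without Dec_Sam 2, 1 without Dec 2 or Dec_Sam 1, 2 without Ctrl 2, Dec 1 or Dec 3 and 7 without Dec_Sam 3. Enzymes of the pentose phosphate pathway and the TCA cycle gave 4 higher and 3 lower of 31. The higher ones were 1 without Dec 2 or Dec_Sam 2, 2 without Ctrl 2, Dec 1, Dec 3, Dec_Sam 1 or with only the 6 libraries fitted and 11 without Dec_Sam 3, and the lower ones 1 without Dec 1 or Dec_Sam 2. Epithelial and mesenchymal genes gave 4 lower and none higher of 34, with 1 without Dec_Sam 2, 2 without Dec 2 and 10 without Dec_Sam 3 for the lower ones and 1 without Dec 3 for the higher ones. Genes of lysosome and autophagy gave 2 higher and 4 lower of 31, with 8 without Dec_Sam 3 for the lower ones. A further 8 lists (the unfolded protein response, protein and RNA methyltransferases, glycolysis, cholesterol and fatty acid synthesis, heat and cold shock, replication-dependent histones, p53 targets and immediate early genes) held 217 tested genes, of which 10 were higher (4.61%) and 12 lower (5.53%). Over these genes the fits without Dec 2, Dec_Sam 1, Dec_Sam 2 and Dec_Sam 3 gave 2, 3, 3 and 22 higher and 5, 7, 5 and 18 lower. The fit without Dec 1 gave 6 and 10, and that without Dec 3 gave 14 and 16. Of the genes the study names, ANXA2R, RBM3 and SUCLG2 were lowered further (RBM3 lost without Dec 1, Dec 2, Dec_Sam 1, Dec_Sam 2 or Dec_Sam 3, SUCLG2 without Dec 1 or Dec_Sam 2), IFIT5 and TREX1 were reversed, STC2 and STING1 were called between the treatments only, and ST3GAL5, ITGA7, RPRM and TP63 were not called (adjusted p = 0.066, 0.27, 0.051 and 0.23). The study compared each treatment with controls and reported ANXA2R, RBM3 and SUCLG2 as lower with the combination only. Here, by another test, they were also called lower in Dec than in Ctrl (SUCLG2 at -1.34 ± 0.11 for Dec minus Ctrl, adjusted p = 7.3e-08). Such a call was common in this fit, with 32.5% of all genes tested lower in Dec than in Ctrl. Far fewer genes were reported as lower with decitabine by the study. The reason for the unlike numbers of calls was not tested.

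Of the 10 genes with the widest range among the combination libraries, 5 followed Dec_Sam 3. SLC15A3, GBP1, RSAD2 and CFB, all known as interferon-stimulated genes, and the pseudogene ENSG00000233887 were highest in Dec_Sam 3. SLC15A3, a lysosomal transporter of peptides, read 0.305, 0.792 and 10.4 CPM in Dec_Sam and 13.9, 19.6 and 27 CPM in Dec, GBP1, a guanylate-binding protein, read 1.22, 2.24 and 20.4 and 33, 42.1 and 58 CPM, and the complement factor CFB read 1.57, 1.23 and 11.9 and 18.6, 20.9 and 29.5 CPM. None of these 5 was called, with adjusted p-values of 0.15 for SLC15A3, 0.12 for GBP1, 0.085 for RSAD2, 0.11 for CFB and 0.11 for the pseudogene, although their groups did not overlap. A wide range within Dec_Sam also widens the error of the comparison, so the missing calls follow in part from how these genes were chosen. The other 5 overlapped between the groups and varied within Ctrl or Dec as well. Among them FAM220A had 0.305, 19.4 and 0.511 CPM in Dec_Sam, 0.127, 0.464 and 1.65 CPM in Dec and 0.248, 0.3 and 10.8 CPM in Ctrl, and CT47A11, whose near-identical copies can share reads, had 0.0435, 5.81 and 4.9 CPM in Dec_Sam and 2.92, 2.53 and 5.34 CPM in Dec.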

How the data were processed

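Total RNA of 9 PC-3 libraries, 3 each of Ctrl, Dec and Dec_Sam, was sequenced by the authors. Per the study's methods and processing notes, the authors checked reads with FastQC, trimmed them with Trim Galore 0.6.4, counted them with kallisto against GRCh38.p13 and normalised with edgeR 3.17. The authors deposited an estimated count for each Ensembl gene and library. These were rounded to whole numbers before testing. Kallisto divides reads that fit several transcripts, so close relatives can exchange counts, and counting by strand is not stated. The deposited log2 CPM files were not used, since they derive from these counts. Of 60617 identifiers, 60357 were matched by identifier to GENCODE release 44 for symbols and positions.

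Genes were filtered with edgeR 4.0.16 (filterByExpr over the 3 groups, R 4.3.3), scaled by TMM, fitted with all 9 libraries by group, and tested with glmQLFTest and Benjamini-Hochberg adjustment. The procedure was tested on simulated data with a common mean per gene, apart from genes changed on purpose, and a single dispersion. No library was shifted there as Dec_Sam 3 was, so the simulation does not cover such a shift. Log2 CPM for plots and spreads had a prior count of 2. No replicate was a copy of another, since count differences exceeded sampling noise in each pair. The numbers of the libraries were not taken as pairs. A call was classed as reversed or strengthened by the sign of a called Dec minus Ctrl difference, and otherwise as called between the treatments only. Alternatives were DESeq2 1.42.0 and its size factors, limma 3.58.1 with voom, library size alone, other filters, the 6 libraries compared alone, a threshold of 1 on the log2 scale, a replicate block and leaving out each library.

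Text genes were the 8 largest changes in each direction (at least 50 mean counts, no overlap), the 6 largest per class called in all 9 fits that left out 1 library, called or explained members of 36 lists, the 10 widest ranges in Dec_Sam and genes the study names. The genes shown and the lists were chosen with earlier results of these data known. Promoter sequences are RefSeq's for GRCh38.p14, matched by symbol for 12858 of 18519 symbols tested.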

Additional observations from a re-analysis of the deposited data

How the results depend on the processing

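None of the 193 genes followed over the settings changed sign, and lower calls outnumbered higher ones except with no filter and without Dec_Sam 3. With a threshold of 1 on the log2 scale, 74 genes were higher and 323 lower, and the classes held 270 reversed, 29 strengthened and 98 called between the treatments only. Over the fits that left out 1 library, calls ranged from 381 to 2066 higher and from 480 to 1997 lower. Reversed genes ranged from 468 to 2379, strengthened genes from 169 to 746 and those called between the treatments only from 224 to 938. The lowest counts came without Dec_Sam 2 and the highest without Dec_Sam 3, and the cause was not tested. DESeq2 called 1517 higher and 1603 lower, voom with limma 1411 and 1552, library size alone 1131 and 1590, no filter 1829 and 1708, and the 6 libraries alone 1000 and 1174. Of 189 called genes named or followed, the threshold was missed by 34 with the 6 libraries alone and at most 15 under the other tools, scalings and filters. Leaving out Dec 1, Dec 2 and Dec 3 gave 51, 87 and 31, and Dec_Sam 1, 2 and 3 gave 66, 87 and 3. Without Ctrl 1, Ctrl 2 and Ctrl 3 it was 16, 26 and 16. Of 72 counts over the gene lists, 7 moved by over 1.5 times with DESeq2, 5 with voom and limma, 4 with library size alone and 20 with no filter.

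The labels give the groups the same replicate numbers. Deviations from the group means of Dec and Dec_Sam libraries correlated over genes at 0.313, 0.0795 and 0.313 for numbers 1, 2 and 3. Each library of these groups correlated best with its own number, a hint from the data only. Between Ctrl and Dec the same numbers gave -0.0285, -0.104 and -0.0165, and between Ctrl and Dec_Sam 0.137, 0.036 and 0.103. The pairing was therefore not taken as given. With a replicate block, which joins Ctrl by number as well, 1766 genes were higher and 1890 lower. The classes then held 1981 reversed, 785 strengthened and 890 called between the treatments only.

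With 3 libraries a group at 21934307 to 22489684 counts, changes at a few counts per library, as in CXCL10 or CLDN5, rest on small numbers. Of the 78 interferon-stimulated genes, 67 were called lower with all libraries, 78 without Dec_Sam 3 and 26 without Dec_Sam 2.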
